A study of Mus musculus with 4 samples.

Results

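Aminoacyl-tRNA synthetases were examined in bronchoalveolar stem cells (BASCs) with and without depletion of c-Myc. The members were the probe sets whose annotated gene symbol is that of a cytosolic or mitochondrial synthetase, the latter with names that end in 2. Of 36 genes listed, 35 had a probe set of their own, 19 cytosolic and 16 mitochondrial, out of 18,193 named genes on the array. Array values of the cytosolic aspartate enzyme gene Dars are not analysed here, and the gene enters only the search of upstream sequences. All 35 passed the filter on low values, with 66 of their 72 probe sets, among 12,589 genes tested. Of the 35, 15 were read by 1 tested probe set and 20 by several, and each gene is represented by its brightest.

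The cells came from lungs of ICR mice aged 4 to 6 weeks. They were sorted as negative for CD31 and CD45 and positive for CD34 and Sca-1, and grown first on irradiated mouse embryonic fibroblasts. Once established, they were kept on collagen-coated dishes by the study's results section, but passaged onto embryonic fibroblasts by its methods. Which of these held for the arrayed cells is not stated. RNA of 2 control samples and 2 Myc-depleted samples was hybridised to Affymetrix arrays of the mouse genome, 1 array each. Depletion was by lentiviral short hairpin RNA against c-Myc and puromycin selection of stable lines. The study calls the control cells of the arrays wild type, and does not say for them whether a control virus or selection was used, nor which hairpin the depleted cells carried. Depletion thus cannot be told apart from infection and selection. Nor is it stated that samples sharing a group were cultured separately. The p-values thus rest on a spread between 2 samples that may be technical.

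A synthetase joins an amino acid to its matching tRNA, and the charged tRNA then delivers that amino acid to the ribosome. Cytosolic enzymes serve the translation of nuclear genes, and a separate nuclear-encoded set serves the ribosomes of mitochondria. Gars and Kars, for glycine and lysine, make both forms from the same gene. Several cytosolic enzymes sit together in a multisynthetase complex, and many are known as targets of Atf4, the transcription factor of the amino acid stress response. Growing cells are known to express the cytosolic enzymes strongly.

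Levels below are log2 values of 1 probe set a gene, and each difference is Myc-depleted minus control on that scale. Calls required an adjusted p (Benjamini-Hochberg, over all probe sets tested) under 0.05 in limma. Myc itself was at 9.21 and 9.69 on control arrays 1 and 2 and at 8.35 and 8.50 on Myc-depleted arrays 1 and 2. The groups did not overlap, and the difference was -1.02 (SE 0.21, adjusted p = 0.363 in limma). The arrays also differed in RNA labelling along the transcript. The poly-A spike-in controls read higher at their 3′ than at their 5′ end by 1.89 on control 1 and 1.78 on Myc-depleted 2, but 3.12 on control 2 and 3.64 on Myc-depleted 1. Comparisons between single arrays of like spike-in value are therefore given beside the main results. Of the lung epithelial markers, 3 of 9 passed the low-value threshold of 5.08. Scgb1a1 and Sftpc, which define BASCs, lay under it with means of 4.45 and 4.55, as did Cd34, a marker of the positive sort, with 3.81. Sca-1, the other such marker, was not read, as no probe set named its gene alone. The summed epithelial signal was 8.45 and 8.44 in control and 8.79 and 8.70 in Myc-depleted cells, without overlap. Epcam, the brightest of the 9 with a mean of 7.33, weighs most in that sum and differed by 0.65. Sftpb and Aqp5, the others that passed, differed by 0.04 and -0.11. Of the fibroblast markers 7 of 8 passed, and their summed signal was 15.41 and 15.67 in control and 15.75 and 15.33 in Myc-depleted cells. This sum, which bright collagen genes such as Col1a2 dominate, overlapped between the groups, but single markers did not. Pdgfra differed by 1.23, Dcn by 0.67 and Pdgfrb by 0.44, all higher on both Myc-depleted arrays, whereas Thy1 differed by -1.26 and was lower on both. These differences exceed those of most synthetases, and the part of cell makeup in the results below was not tested. In such bulk RNA, fewer cells of a type and less RNA per cell cannot be told apart.

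The cytosolic synthetases were mostly lower in Myc-depleted cells. Of 19 genes, 17 had a negative difference, and the median difference was -0.31 (quartiles -0.39 and -0.22), or 80.6% of the control level. For all 12,589 genes tested the median was 0.02, with 46% negative and 54% positive. The groups did not overlap for 14 cytosolic genes in the lower direction, or 73.7%, against 20.8% of all genes. They did not overlap for 1 gene, Qars, in the higher direction, against 26.6% of all genes. Of the 35 synthetases 0 passed the adjusted threshold, which 0% of all genes passed, and the smallest adjusted p among them was 0.411. At an unadjusted p under 0.05 stood 3 cytosolic genes (Cars, Gars and Kars), all lower, or 15.8% of 19, against 5.23% of all genes. In the higher direction 0 synthetases reached it, against 6.96% of all genes. The 3 became 0 without control 2 or without Myc-depleted 1, and 2 without either of the other arrays. Leaving out any array in turn moved the cytosolic median between -0.40 and -0.22.

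**Figure D1:**
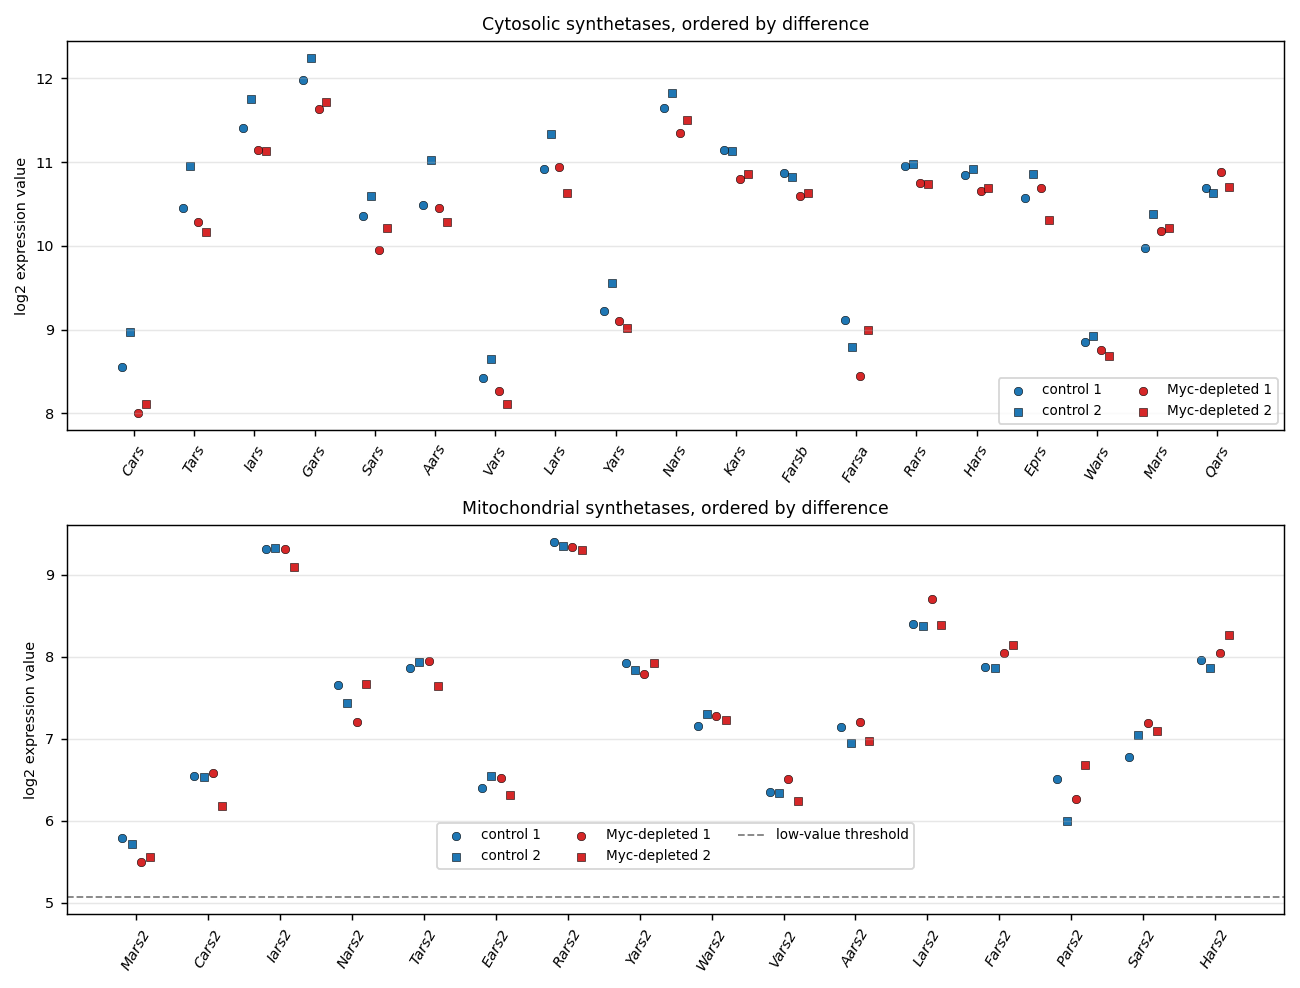
Log2 expression value (y axis) of each synthetase gene on control (blue) and Myc-depleted (red) arrays, replicate 1 as circles and replicate 2 as squares, ordered from the lowest to the highest difference, with the low-value threshold of 5.08 as a dashed line in the lower panel. For 14 of 19 cytosolic genes both red marks lie under both blue marks, as they do for 3 of 16 mitochondrial genes.

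The largest difference belonged to Cars, which charges tRNA with cysteine. It was at 8.55 and 8.98 on the control arrays and at 8.01 and 8.11 on the Myc-depleted arrays. Both Myc-depleted arrays lay under both controls, and the difference was -0.70 (SE 0.19, adjusted p = 0.411). A second, dimmer Cars probe set with a mean of 5.69 differed by -0.20. Tars, for threonine, was at 10.45 and 10.95 in control and at 10.28 and 10.16 in Myc-depleted cells. Its groups did not overlap, but the controls lay further apart than the nearer control and either Myc-depleted array, and the difference was -0.48 (SE 0.21, adjusted p = 0.562). Iars, for isoleucine, was at 11.41 and 11.75 against 11.15 and 11.13. The difference was -0.44 (SE 0.16, adjusted p = 0.499), and a second probe set of the gene differed by -0.60. Gars was at 11.98 and 12.24 in control and at 11.63 and 11.72 in Myc-depleted cells, with a difference of -0.44 (SE 0.14, adjusted p = 0.465).

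Kars had the tightest controls of the enzymes with low p. It was at 11.15 and 11.13 in control and at 10.80 and 10.86 in Myc-depleted cells, and it differed by -0.31 (SE 0.11, adjusted p = 0.494). Sars, for serine, was at 10.36 and 10.60 against 9.95 and 10.21, a difference of -0.40. Vars, for valine, was at 8.43 and 8.65 against 8.26 and 8.11, a difference of -0.36. In both genes the groups were separate. Nars, for asparagine, was at 11.65 and 11.83 against 11.35 and 11.51 and differed by -0.31, with a second probe set at -0.48. Yars, for tyrosine, was at 9.22 and 9.56 against 9.11 and 9.02 and differed by -0.33. Aars, for alanine, was at 10.49 and 11.02 against 10.45 and 10.29, so that control 1 and Myc-depleted 1 stood side by side although the difference of the means was -0.38 (SE 0.23, adjusted p = 0.657). A second Aars probe set of similar brightness differed by -0.29, and there the groups overlapped.

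Smaller but even differences were found for several enzymes whose arrays agreed closely within groups. Rars, for arginine, was at 10.95 and 10.98 in control and at 10.75 and 10.74 in Myc-depleted cells, a difference of -0.22 (SE 0.11, adjusted p = 0.596). Hars, for histidine, was at 10.85 and 10.92 against 10.66 and 10.69, a difference of -0.21, and its second probe set also gave -0.21. Farsb, the beta subunit of the phenylalanine enzyme, was at 10.87 and 10.82 against 10.60 and 10.64 and differed by -0.23. Other Farsb probe sets differed by -0.37, -0.26 and, for a dim one with a mean of 5.49, by 0.03. Wars, for tryptophan, differed by -0.18 without overlap. Farsa, which encodes the alpha subunit of the phenylalanine enzyme, was at 9.113 and 8.792 against 8.453 and 9.002. It differed by -0.23 but its groups overlapped, and the sign turned to 0.05 without Myc-depleted 1. The 3 dimmer Farsa probe sets differed by -0.06, 0.05 and -0.04.

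The exceptions were the methionine and glutamine enzymes. Qars, for glutamine, was at 10.69 and 10.63 in control and at 10.88 and 10.71 in Myc-depleted cells. Both Myc-depleted arrays lay above both controls, and the difference was 0.13 (SE 0.13, 95% interval -0.22 to 0.48, adjusted p = 0.809). The other 3 probe sets of Qars also had positive differences, from 0.05 to 0.19. Mars, for methionine, was at 9.97 and 10.38 against 10.18 and 10.21, with both Myc-depleted arrays between the controls. It differed by 0.02, and the sign turned to -0.18 without control 1. Lars, for leucine, and Eprs, which charges both glutamate and proline, had overlapping groups and differed by -0.34 and -0.21. Other Eprs probe sets, also with overlap, differed by -0.10, -0.11 and, for a dim one with a mean of 5.56, by -0.23.

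**Figure D2:**
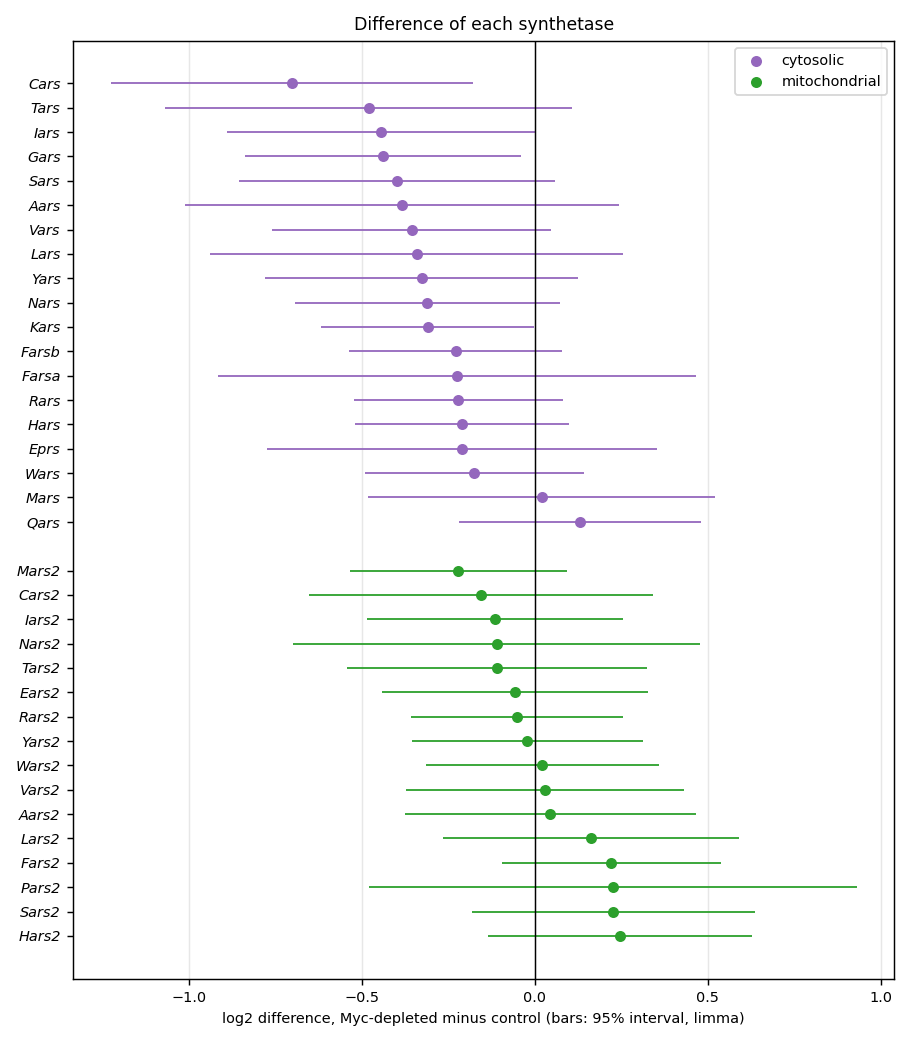
Log2 difference of each synthetase gene, Myc-depleted minus control (x axis), with bars for the 95% interval from limma on 2 arrays a group, cytosolic genes in purple and mitochondrial genes in green. The cytosolic points run from -0.70 (Cars) to 0.13 (Qars) and the mitochondrial points from -0.22 (Mars2) to 0.25 (Hars2).

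The upstream sequences of the synthetase genes were searched for letters bound by factors named in this comparison. Myc and its partner Max are known to bind the E-box CACGTG, which reads the same on both strands, and Atf4 with C/EBP factors is known to bind elements with the letters TGATGNAAT, searched on both strands. Of the 36 genes, 27 were read from the RefSeq table of promoters (GRCm38.p6), over the 250 bases before each start. A chromosome was set aside for the synthetases but not for the wider sets below, so some genes may be missing for that reason. The E-box letters stood in 3 of 13 cytosolic genes (23.1%), in 0 of 14 mitochondrial genes, and in 6.86% of all 27,025 genes of the table or 9.8% of the 10,187 that were also tested on the arrays. TGATGNAAT stood in 2 of 13 cytosolic genes (15.4%), 0 of 14 mitochondrial genes, and 0.91% and 0.481% of those wider sets. Dars, which has no array value here, is among the 13 and held neither. The genes with a match are shown because they include Iars and Gars, which stand among the cytosolic genes with the largest differences. Capitals mark the matched letters, and no matches overlap. Aars holds both, with the E-box letters starting 146 bases and the other element 113 bases before the start, Gars holds the element at 31 bases, Iars the E-box letters at 69 bases and Farsb at 39 bases.
Aars, chr8:111033592-111033841, plus strand: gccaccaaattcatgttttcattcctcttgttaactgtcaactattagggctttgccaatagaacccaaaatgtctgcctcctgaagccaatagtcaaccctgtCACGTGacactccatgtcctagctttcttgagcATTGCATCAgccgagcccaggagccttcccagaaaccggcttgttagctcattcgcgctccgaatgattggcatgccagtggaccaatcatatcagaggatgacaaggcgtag
Gars, chr6:55037751-55038000, plus strand: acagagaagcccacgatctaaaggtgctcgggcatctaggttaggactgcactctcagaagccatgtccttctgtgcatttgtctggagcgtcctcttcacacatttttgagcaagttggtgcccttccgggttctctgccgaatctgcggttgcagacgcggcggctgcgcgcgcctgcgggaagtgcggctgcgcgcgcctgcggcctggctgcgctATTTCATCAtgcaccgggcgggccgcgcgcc
Iars, chr13:49681880-49682129, plus strand: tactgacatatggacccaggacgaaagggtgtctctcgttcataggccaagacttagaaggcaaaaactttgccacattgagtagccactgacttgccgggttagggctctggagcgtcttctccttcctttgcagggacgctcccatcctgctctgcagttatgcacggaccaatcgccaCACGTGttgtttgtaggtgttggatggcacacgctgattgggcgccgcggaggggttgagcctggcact
Farsb, chr1:78488898-78489147, minus strand: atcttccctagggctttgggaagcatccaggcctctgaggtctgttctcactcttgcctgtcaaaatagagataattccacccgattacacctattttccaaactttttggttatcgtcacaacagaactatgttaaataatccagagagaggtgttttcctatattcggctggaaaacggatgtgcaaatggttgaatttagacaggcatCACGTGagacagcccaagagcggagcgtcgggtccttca
These are matches of letters and not measured binding sites. The differences of the 3 cytosolic genes with the E-box letters ran from -0.44 to -0.23, within the range of the 9 without them that had a value (-0.48 to 0.13). Cars, with the largest difference, has no entry in the table, and Tars, with the next, held neither.

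The mitochondrial synthetases with names that end in 2 did not share the direction of the cytosolic ones. Gars (-0.44) and Kars (-0.31), which make both forms, were counted as cytosolic only. Of the 16 genes so named, 8 had a negative and 8 a positive difference, and the median was 0.00 (quartiles -0.11 and 0.18). The groups did not overlap for 3 genes in each direction, or 18.8% each, close to or under the 20.8% and 26.6% of all genes. Fars2, for phenylalanine, was at 7.88 and 7.87 in control and at 8.05 and 8.15 in Myc-depleted cells, a difference of 0.22 (SE 0.11, adjusted p = 0.612). Hars2, for histidine, was at 7.96 and 7.87 against 8.05 and 8.27, a difference of 0.25 (SE 0.14, adjusted p = 0.638), and its second probe set gave the same 0.25. Sars2, for serine, was at 6.79 and 7.05 against 7.19 and 7.10 and differed by 0.23. These were the 3 genes with both Myc-depleted arrays above both controls.

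On the lower side stood Mars2, for methionine, at 5.791 and 5.721 in control and 5.504 and 5.565 in Myc-depleted cells, a difference of -0.22 (SE 0.11, adjusted p = 0.608). Its level lay near the low-value threshold of 5.08. Iars2 was at 9.32 on both controls and at 9.31 and 9.09 on the Myc-depleted arrays, so that its difference of -0.12 came from 1 array. Rars2 was at 9.40 and 9.35 against 9.34 and 9.31 and differed by -0.05. The groups of these 3 genes did not overlap. Pars2, for proline, differed by 0.23 with the widest spread, at 6.51 and 6.00 in control and 6.27 and 6.68 in Myc-depleted cells. Lars2 was at 8.40 and 8.37 against 8.70 and 8.39 and differed by 0.16, with a second probe set at -0.03. Cars2 differed by -0.16, with Myc-depleted 2 alone low at 6.19, and its 2 dimmer probe sets differed by 0.03 each. The other mitochondrial genes, Nars2, Tars2, Ears2, Yars2, Wars2, Vars2 and Aars2, had overlapping groups and differences between -0.11 and 0.04. A second probe set of Tars2 differed by 0.05, against -0.11 for the one used. Another tested probe set of Yars2 differed by -0.21 and one of Ears2 by -0.20, both lower without overlap. Those of Wars2 and Vars2 differed by 0.10 and 0.08 with overlap.

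The medians of the classes lay 0.31 apart, the cytosolic one lower. This gap was not tested, since the members were chosen with results of these data known. Leaving out any array gave a gap between -0.41 and -0.18, the latter without control 2. The probe sets of the cytosolic genes were brighter, with means over the arrays from 8.36 to 11.89, against 5.65 to 9.35 for the mitochondrial genes. These levels set different probe sets side by side and rank no transcripts. Over the 5,281 other genes in the cytosolic range the median difference was -0.01, with 51.1% negative. Over the 6,781 other genes in the mitochondrial range it was 0.03, with 45.0% negative. The interquartile range of those differences was 0.35 in both.

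For 13 amino acids both a cytosolic and a mitochondrial enzyme were measured, and in 12 of these pairs the cytosolic difference was the lower one. The serine pair lay furthest apart, with -0.40 for Sars and 0.23 for Sars2. Next were the pairs for cysteine (-0.70 and -0.16), leucine (-0.34 and 0.16) and histidine (-0.21 and 0.25). The smallest gap among the 12 was that of arginine, at -0.22 for Rars and -0.05 for Rars2. Methionine was the exception, with 0.02 for Mars and -0.22 for Mars2. In 6 pairs both enzymes were negative and in 6 the cytosolic enzyme was negative and the mitochondrial one positive.

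**Figure D3:**
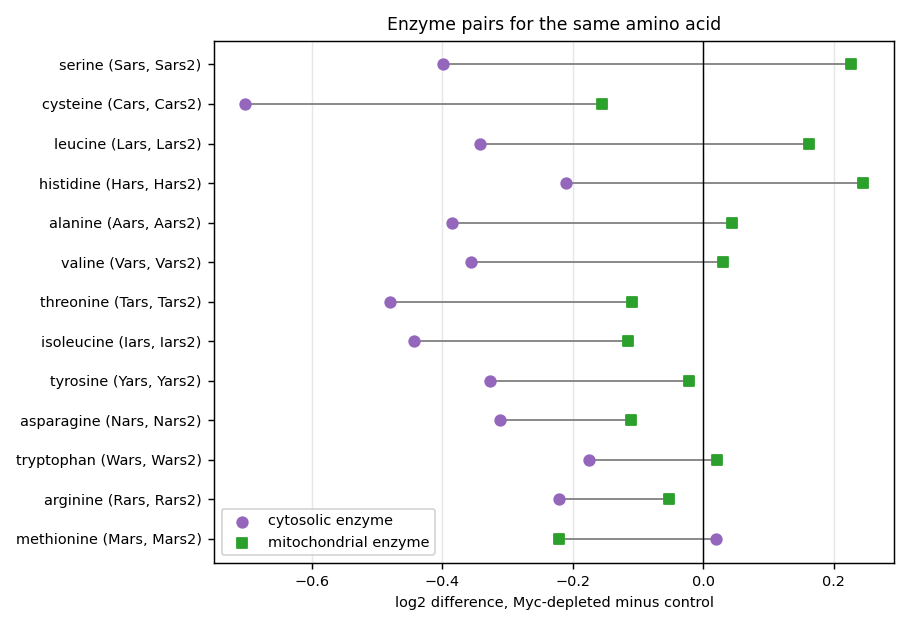
Log2 difference, Myc-depleted minus control (x axis), of the cytosolic (purple circles) and mitochondrial (green squares) enzyme for each of 13 amino acids, joined by a line and ordered by the gap, with no error bars. The cytosolic enzyme lies to the left in 12 pairs, and methionine at the bottom is reversed.

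The cytosolic difference was present in each comparison of single arrays, and it was larger against control 2. Between the 2 arrays with low spike-in values, Myc-depleted 2 and control 1, the cytosolic median was -0.21 with 17 of 19 genes negative. Between the 2 with high values, Myc-depleted 1 and control 2, it was -0.39 with 18 of 19 negative. Across spike-in values it was -0.19 for Myc-depleted 1 against control 1 and -0.38 for Myc-depleted 2 against control 2. Control 2 carried the highest value of the 4 arrays for 15 of 19 cytosolic genes, and stood a median of 0.24 above control 1. The 2 Myc-depleted arrays differed by a median of -0.01. For the mitochondrial genes the 4 medians ran from -0.04 to 0.07, and control 2 was highest for 3 of 16. Actin probe sets, which read the cells' own RNA, were also higher at the 3′ end. They were so by 0.60 on control 1, 1.36 on control 2, 1.95 on Myc-depleted 1 and 0.69 on Myc-depleted 2. The part of labelling along the transcript, of RNA quality or of control 2 in the class gap was not tested beyond these values.

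Every subgroup of the cytosolic enzymes examined had a negative median in the comparison of group means. Class I enzymes, which share one fold of the catalytic domain, had 8 of 10 negative and a median of -0.27. Class II enzymes, which share the other fold, had 9 of 9 negative and a median of -0.31. Eprs was counted only in class I, although its proline part has the class II fold. The 7 measured enzymes of the multisynthetase complex had 5 negative and a median of -0.22, whereas the 12 outside it were all negative with a median of -0.34. Between Myc-depleted 1 and control 1 alone, the complex enzymes had a median of 0.03 with 3 of 7 negative. Their medians in the remaining comparisons of single arrays were -0.26, -0.23 and -0.27. Qars and Mars, the exceptions, both belong to the complex. Among the 13 genes known from other cells as Atf4 targets 12 were negative with a median of -0.36, and among the other 6 cytosolic genes 5 were negative with a median of -0.22. The differences between these subgroups were not tested.

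Of the complex scaffold genes 3 of 3 were negative and 0 were called. Aimp2 was at 10.43 and 10.42 in control and 10.01 and 10.26 in Myc-depleted cells, a difference of -0.29 without overlap. Eef1e1, also called Aimp3, differed by -0.36 with overlap, its low value of 9.70 lying on Myc-depleted 1 against 10.32 on Myc-depleted 2. Aimp1 differed by -0.02.

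Genes of amino acid sensing and the Atf4 response lay lower with the cytosolic enzymes, 12 of 13 being negative with a median of -0.39. None was called, and the groups did not overlap for 6 of 13, all lower, against 20.8% of all genes in that direction. Chac1, which degrades glutathione, was at 7.71 and 8.09 against 6.38 and 6.59, a difference of -1.41 (SE 0.19, adjusted p = 0.282). Asns, the synthase of asparagine, differed by -0.76, and the leucine transporter gene Slc7a5 by -1.22. Phgdh and Psat1, enzymes of serine synthesis, differed by -0.96 and -0.76. Atf4 itself was at 11.22 and 11.46 against 11.28 and 11.22, a difference of -0.09 with overlap, and its second probe set differed by -0.39. Ddit3, another stress-induced factor, differed by 0.28.

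The lists of neighbouring steps of tRNA use did not share a direction with each other. Among 6 genes of editing and tRNA quality control 2 were negative and 4 positive, with Prorsd1 at 0.59, Tarsl2, a threonine enzyme paralog, at -0.43, and Dtd1, which removes D-amino acids from tRNA, at 0.48. Of 6 genes of the transamidation and selenocysteine routes 4 were positive, with the amidotransferase subunit genes Qrsl1 at 0.48 and Gatb at 0.41 and Sepsecs at 0.26. Of 23 genes of tRNA maturation and export 14 were negative with a median of -0.06. The groups did not overlap for 10 of the 23 in the lower direction and 3 in the higher, against 20.8% and 26.6% of all genes. At an unadjusted p under 0.05 in limma stood 3 lower and 0 higher, against 5.23% and 6.96% of all genes. The lowest were the RNase P subunit gene Pop1 (-0.55), the tRNA methylation cofactor gene Wdr4 (-0.40, with a dimmer probe set at 0.03) and the tRNA methyltransferase gene Nsun2 (-0.38). In cytosolic elongation, which receives the charged tRNA, 1 of 4 genes was negative, Eef1d at -0.24, with Eef2 at 0.23 and Eef1b2 at 0.05. The 9 mitochondrial translation factors had a median of 0.02, with Mtrf1l at 0.63, Mtif3 at 0.49 and Gfm1 at -0.27 (another probe set at 0.14). In all these lists 0 genes were called.

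**Figure D4:**
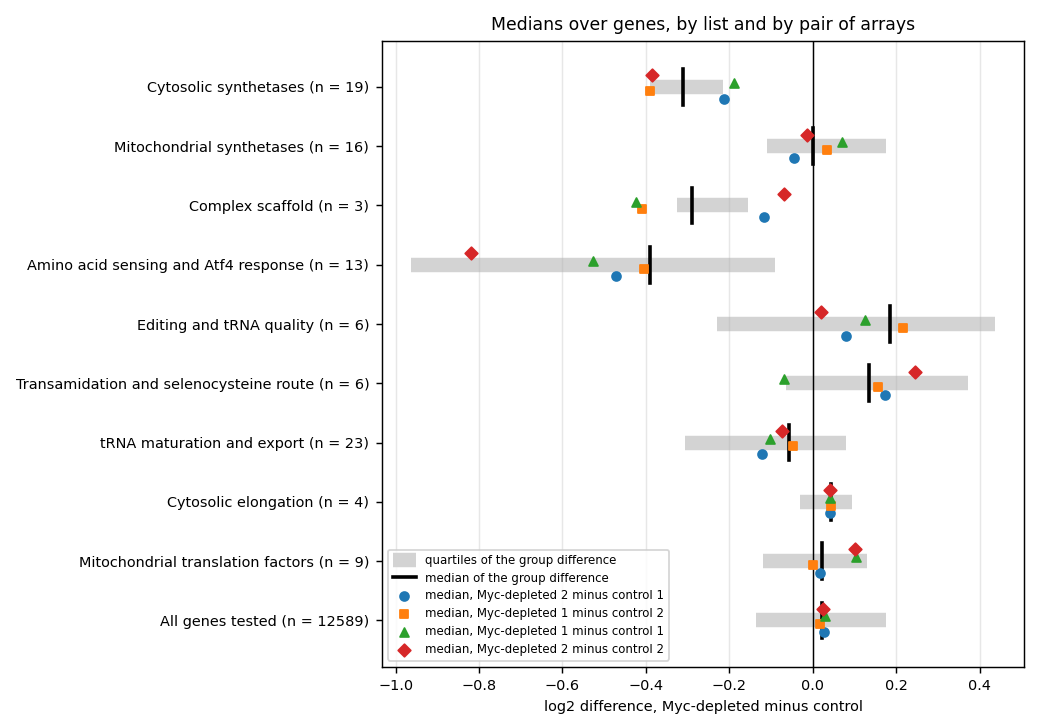
Median log2 difference, Myc-depleted minus control (x axis), over the genes of each list (black line), with the quartiles over its genes (grey) and the medians of the 4 comparisons of single arrays (coloured marks). The 4 marks of the cytosolic synthetases lie between -0.39 and -0.19, those of the mitochondrial synthetases between -0.04 and 0.07, and those of all genes near 0.02.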

How the data were processed

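Messenger RNA of 4 samples was measured, 2 control and 2 Myc-depleted, grouped by their labels. Per the submitters' processing notes, the authors used Partek 6.4 and GCRMA, while the study's methods give Robust Multichip Average and a log2 transform. Either could have made the deposited log2 values, and the choice bears on dim probe sets such as those of the mitochondrial enzymes. After removal of 64 control probe sets from 45,101, those with a mean at or over the 40th percentile (5.08) were kept, 27,022 of 45,037. Groups were compared with limma 3.58.1 under R 4.3.3 (lmFit and eBayes), and p-values were adjusted by Benjamini-Hochberg over all kept probe sets. With 2 residual and 2.02 prior degrees of freedom, precision is limited by how few arrays there are. The fit was tested on simulated data. Sequences are RefSeq's (GRCm38.p6).

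Gene names came from the platform annotation. A gene was represented by its brightest tested probe set that named it alone, and others are given where their sign differs, where they lie over 0.5 away, or to show their spread. Members and lists were chosen with earlier results of these data known. Array values are given for the 12 cytosolic and 6 mitochondrial genes with the smallest p and for up to 3 exceptions in direction a class. The pairs, the 3 genes of each list with the smallest p, and further genes that describe a list are also named. Alternatives covered the filter, scaling, floor, variance model, the methods' ANOVA, the replicate number as a block, a spike-in covariate, the probe set choice, the call thresholds and each array left out.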

Additional observations from a re-analysis of the deposited data

How the results depend on the processing

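Of 595 differences of single synthetases under the alternatives, 577 kept their sign and their side of the threshold, and 24 genes, 17 of them cytosolic, never changed sign. Settings of the filter, floor, variance model, ANOVA or block left each difference of means as it was, so they could not change a sign. With the probe set of smallest SD, Cars2 differed by 0.030 and Tars2 by 0.050. Leaving out each array in turn changed the sign of Mars (-0.18 to 0.22), Farsa (-0.50 to 0.049), Aars2 (-0.068 to 0.16), Cars2 (-0.36 to 0.047), Ears2 (-0.16 to 0.041), Nars2 (-0.34 to 0.12), Pars2 (-0.030 to 0.48), Tars2 (-0.26 to 0.047), Vars2 (-0.11 to 0.17), Wars2 (-0.052 to 0.095) and Yars2 (-0.085 to 0.042). It gave 0 to 2 lower synthetases at an unadjusted p under 0.05, in place of 3, and a gap between the class medians of -0.41 to -0.18. That count of 3 was 5 with a trend on mean level, 5 lower and 1 higher in the methods' ANOVA, 6 with the mean of all probe sets of a gene, and 12 lower and 2 higher with the spike-in covariate, under which 1 synthetase, Cars, was called (adjusted p = 0.0333 in limma, with 1 residual degree of freedom, among 3,224 probe sets called). At an unadjusted p as the call rule 3 were called lower, and at the study's thresholds 0. With the replicate number as a block the count was 1, and 0 were called. Deviations of arrays of the same number ran opposite (r = -0.77 across probe sets, which are not independent). With the crossed pairing as a block, chosen after seeing the data, it was 9, and 0 synthetases were called. The share of all genes at that unadjusted p was not computed under these alternatives. Higher counts there are thus not shown to be particular to the synthetases. The cause of these shifts was not tested. The cytosolic median stayed between -0.40 and -0.22 under every alternative run. Both filters and the floor on low values left the cytosolic median and the gap as they were. This had to be so, since the probe sets used lay over these limits. Their lowest mean was 5.65, against a stricter threshold of 5.49.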
